A study of Populus ussuriensis with 12 samples.

Results

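A set of 233 root tip genes of Populus ussuriensis, out of 34699 in the table, was raised by osmotic stress in both genotypes and stood higher in unstressed plants of the PuC3H35 overexpressor than in unstressed wild type. The genes were chosen on group means of FPKM, a measure of transcript level per gene length and library depth, on the log2(FPKM + 1) scale. A member reached a group mean of at least 5 FPKM in its highest group, had a wild-type mean above 0 without stress, and rose by at least 2 with stress in wild type and by at least 1 with stress in the overexpressor. It also stood at least 1 higher in the unstressed overexpressor than in unstressed wild type. These 3 differences and the interaction made of them are therefore descriptions of the choice and carry no test. The differences between OE and WT under PEG, and between OE without PEG and WT under PEG, are sums of the same 3 differences, so the limits bear on them too. Calls on them are given as descriptions of the members, beside the share of all genes called, and nothing is read from the contrast with that share.

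The plants were grown in vitro, and 1-week-old plants spent 7 days on agar medium with 6% PEG6000 or without it, after which the terminal 0.5 cm of the root was sequenced. The groups were the overexpressor under PEG (OE under PEG), the overexpressor without PEG (OE without PEG), wild type under PEG (WT under PEG) and wild type without PEG (WT without PEG), with 3 libraries each. The labels name the OE line as PuC3H35-OE in 1 library and with a running number up to PuC3H40-OE in the others, and all 6 were taken as the single line of the series title. Plants per library, the transgene promoter and the independence of replicates were not given in the sources used here, so the spread between libraries may be technical.

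Polyethylene glycol of high molecular weight lowers the water potential of a medium without entering root cells in quantity, and is used to impose a water deficit. Plants answer such a deficit partly through abscisic acid, with the accumulation of compatible solutes, protective proteins and changes in cell wall and transport genes, while growth at the root tip is adjusted. CCCH zinc finger proteins carry motifs of 3 cysteines and 1 histidine that bind zinc, and members of the family act on RNA or DNA in plant stress responses. The files give identifiers without gene names, so no role is stated for any gene below, cell type markers could not be looked up, and PuC3H35 transcript was not analysed here. In bulk RNA a larger share of a cell type and more transcript per cell cannot be told apart.

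Depth, worked out from the steps between FPKM values, was 27124958 to 37106342 reads per library. Members held a median of 1279 reads per library under PEG and 212 without PEG in OE, and 852 under PEG and 33.7 without PEG in WT. Values in unstressed wild type were thus the least precise: the median coefficient of variation between the 3 libraries of a group was 4.42% under PEG and 9.99% without PEG in OE, and 5.23% under PEG and 24.1% without PEG in WT. At least 1 WT library without PEG listed 23 of the members at 0, and 65 members had under 30 reads summed over those 3 libraries.

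The rule fixes most of the order of the group means. It sets OE without PEG and WT under PEG above WT without PEG, and OE under PEG above OE without PEG. Whether OE without PEG lies below WT under PEG is left free, but the higher limit for WT favours it. Of the 233 genes, 229 had a group mean in OE without PEG that lay below WT under PEG and above WT without PEG, and 170 had their highest mean in OE under PEG, the other 63 having it in WT under PEG. The median member stood at 35.4 FPKM under PEG and 5.63 without PEG in OE, and 23.2 under PEG and 0.914 without PEG in WT. In the sum over all members the order was the same in every library. They made up 4.07%, 4.09% and 4.008% of all FPKM in the OE PEG libraries and 0.993%, 1.04% and 1.02% in the OE libraries without PEG. In wild type they made up 2.75%, 2.80% and 2.83% under PEG and 0.226%, 0.223% and 0.224% without it. No single library set these shares, since the groups did not overlap. Highly expressed members weigh most in them. Potri.001G102400 alone averaged 2941 FPKM in OE under PEG, where the members summed to 27078, 27170 and 26521 FPKM.

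**Figure D1:**
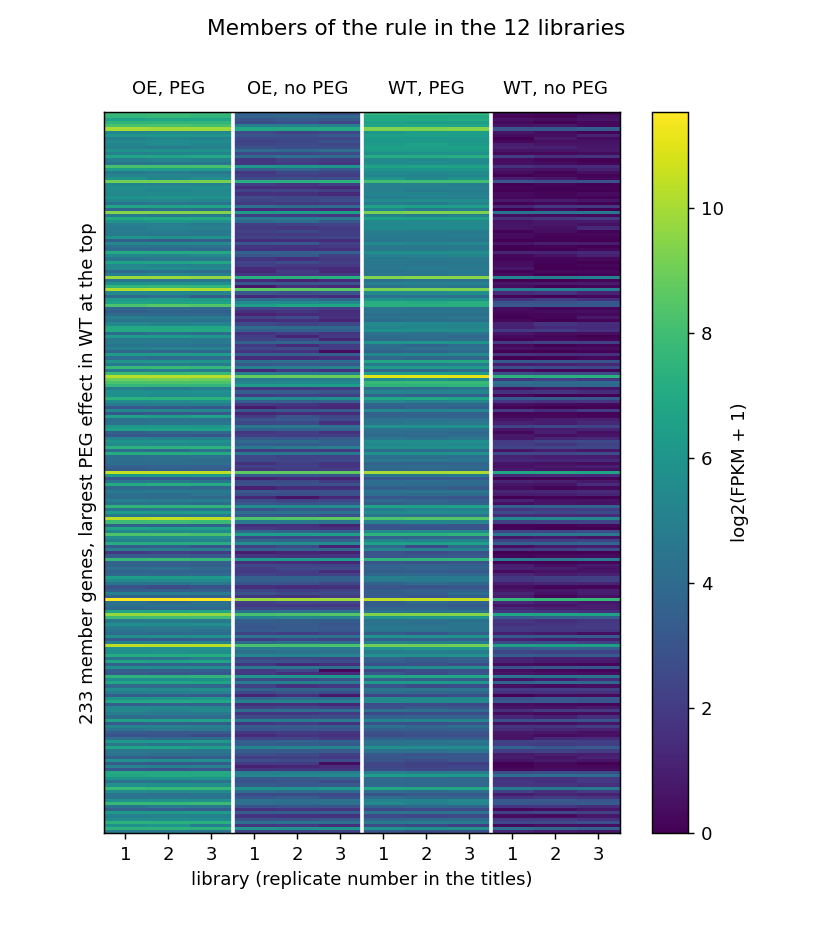
Heat map of log2(FPKM + 1) for the 233 members (rows, ordered by the PEG effect in WT) in the 12 libraries (columns, 3 per group). The WT columns without PEG are darkest, the OE columns without PEG lie between them and the WT PEG columns, and the 3 libraries of a group look alike.

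The rule narrowed the table in steps. A group mean of 5 FPKM or more was reached by 17273 genes, of which 17254 had a WT mean above 0 without PEG. Of these, 459 (2.66%) rose by at least 2 with PEG in WT, and 375 of them also rose by at least 1 with PEG in OE. Among those 375 genes, 233 were the members and 142 stood less than 1 above WT in OE without PEG. A further 38 genes met the limits on the PEG effect in WT and on OE without PEG but rose by less than 1 with PEG in OE. Another 2 genes met every limit apart from a WT mean of 0.

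The limits cut through a continuum. For the PEG effect in WT, the members nearest the limit stood at 2.004 and 2.004 and the nearest genes outside at 1.994 and 1.992. For the PEG effect in OE they stood at 1.004 and 1.009 inside and 0.976 and 0.966 outside, and for OE minus WT without PEG at 1.003 and 1.003 inside and 0.99895 and 0.99761 outside. The floor of 5 FPKM excluded no gene that met the other limits, and the lowest members in this respect reached 6.18 and 6.24 FPKM.

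The PEG effect in WT ranged from 2.00 to 7.42 among the members, with a median of 3.16, against a median of -0.04 over the 22640 genes with a mean of at least 1 FPKM. Potri.017G114600, on chromosome 17 by its identifier, had the largest effect. It read 230, 244 and 222 FPKM under PEG and 11.7, 11.7 and 6.41 without PEG in OE, and 196, 202 and 199 under PEG and 0.183, 0.166 and 0.149 without PEG in WT, where each library held 4 reads. The 4 groups did not overlap, and the third OE library without PEG lay well below the other two. Potri.007G114375, on chromosome 7, came second, with 190, 205 and 179 FPKM under PEG and 11.6, 12.9 and 13.4 without PEG in OE, and 123, 120 and 118 under PEG and 0.106, 0.0965 and 0.434 without PEG in WT. Its WT values without PEG came from 2, 2 and 10 reads.

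The PEG effect in OE ranged from 1.00 to 6.32, with a median of 2.17. The largest effects here, picked after the values were seen, were those of Potri.003G061200 (6.32) and Potri.017G110800 (4.90). Potri.003G061200 read 192, 201 and 193 FPKM under PEG and 0.658, 2.05 and 1.69 without PEG in OE, and 19.2, 22.4 and 20.7 under PEG and 0.314, 0 and 0.128 without PEG in WT. Its level in unstressed OE was far below both PEG groups, and it rested on 10, 27 and 29 reads. Potri.017G110800 read 186, 183 and 190 FPKM under PEG and 5.39, 6.04 and 4.37 without PEG in OE, and 95.6, 84.5 and 87.0 under PEG and 0.240, 0 and 0.196 without PEG in WT. Measured on the log2(FPKM + 1) scale, PEG moved 208 of the 233 members less in OE than in WT and 25 more, a balance that the higher limit set for WT helps to fix. The balance was not counted in FPKM, a scale on which it can differ.

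The difference between OE and WT without PEG ranged from 1.00 to 4.55, with a median of 1.60, against 0.04 over the genes tested. All 3 OE libraries lay above all 3 WT libraries in 232 of the 233 members. The limit of at least 1 on the means of these same libraries nearly fixes this ordering, and its share over all genes was not computed. Potri.008G106400, on chromosome 8, differed most, with 66.5, 66.7 and 63.3 FPKM in OE without PEG against 2.18, 1.70 and 1.64 in WT without PEG. It read 286, 287 and 287 in OE under PEG and 103, 102 and 103 in WT under PEG, so that unstressed OE lay nearer in FPKM to stressed WT than to unstressed WT. Potri.001G107600, on chromosome 1, had 30.9, 33.0 and 29.6 FPKM in OE without PEG and 0.555, 0.5999 and 0.170 in WT without PEG. Under PEG it had 297, 302 and 285 FPKM in OE and 104, 119 and 109 in WT, a wider gap to the unstressed OE level than for Potri.008G106400.

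**Figure D2:**
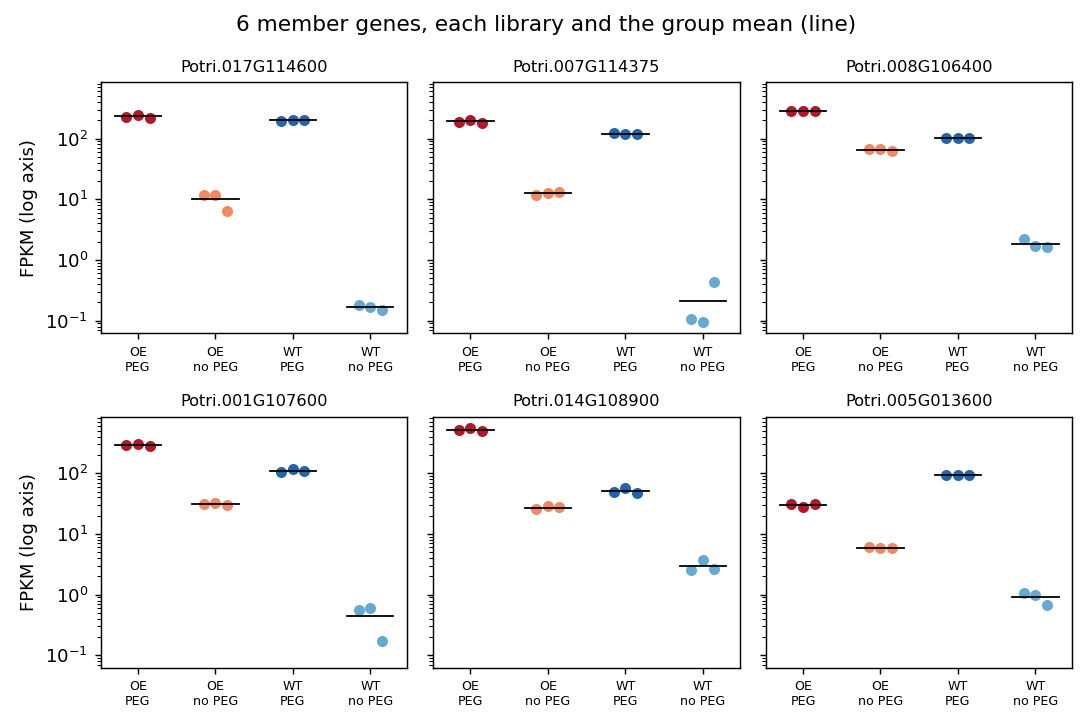
FPKM on a log axis of 6 members in each library (points) with the group mean (line), for OE under PEG, OE without PEG, WT under PEG and WT without PEG from left to right. In each panel WT without PEG is lowest and OE without PEG is next, and Potri.005G013600 is the member shown whose PEG level is lower in OE than in WT.

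The 2 members with the highest means in OE under PEG had high levels already in unstressed wild type. Potri.001G102400 read 2952, 2951 and 2921 FPKM under PEG and 872, 969 and 925 without PEG in OE, and 1334, 1442 and 1410 under PEG and 213, 206 and 212 without PEG in WT. Potri.009G114701 averaged 1416 ± 34.2 FPKM under PEG and 407 ± 8.61 without PEG in OE, and 1057 ± 19.4 under PEG and 117 ± 4.81 without PEG in WT (SD, n = 3). In WT under PEG another member, Potri.013G131200, picked after the values were seen, had the highest mean, with 1245 FPKM under PEG and 470 without PEG in OE, and 2188 under PEG and 167 without PEG in WT. A WT mean of at least 10 FPKM without PEG was found in 21 members, and 123 had a WT mean below 1 FPKM.

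The next values describe how far OE without PEG stood from WT under PEG. The higher limit for PEG in WT than for OE minus WT favours members that are lower in OE without PEG. In limma fits on log2(FPKM + 1) over 22640 genes, with Benjamini-Hochberg adjusted p under 0.05 as a call, 226 of the 233 members (97.0%) were lower in OE without PEG than in WT under PEG, where 26.6% of all genes tested were called lower. None was called higher, against 33.8% of all genes tested, by limma on log2(FPKM + 1), and voom on reads called 1, while 0 were higher at an unadjusted p under 0.05 in limma. None was called higher by at least 1 either, against 2.06% of all genes tested. The median difference was -1.42 among members and 0.05 over all genes tested, and 174 members were called lower by at least 1, against 3.95% of all genes tested. All 3 OE libraries without PEG lay below all 3 WT PEG libraries in 224 members, an ordering found in 28.6% of the genes tested.

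The largest gap among the genes named here was that of Potri.017G114600, at -4.23 (SE 0.15), and that of Potri.008G106400 was -0.64 (SE 0.06). The 7 members not called had OE means close to or above their WT PEG means, with differences from -0.18 to 0.13. The highest of them, picked after the values were seen, was Potri.001G288600. It had 327, 356 and 403 FPKM in OE without PEG against 304, 351 and 336 in WT under PEG, groups that overlapped, with a difference of 0.13 (SE 0.07) that limma did not call. It read 1285, 1379 and 1317 FPKM in OE under PEG and 45.3, 40.2 and 41.03 in WT without PEG.

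Expressed as a share of the wild-type PEG effect, the rise in unstressed OE depended on the scale. On the log2(FPKM + 1) scale it covered 23.5% to 104% of the PEG effect, with a median of 51.5%, and 108 members covered under 50%. In FPKM it covered 4.80% to 111%, with a median of 27.9%, and 201 members covered under 50%. Potri.017G114600 covered 43.5% on the log2(FPKM + 1) scale and 4.92% in FPKM. For Potri.008G106400 the shares were 87.6% and 63.0%. The WT libraries without PEG enter both parts of each share, which is given without a test.

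**Figure D3:**
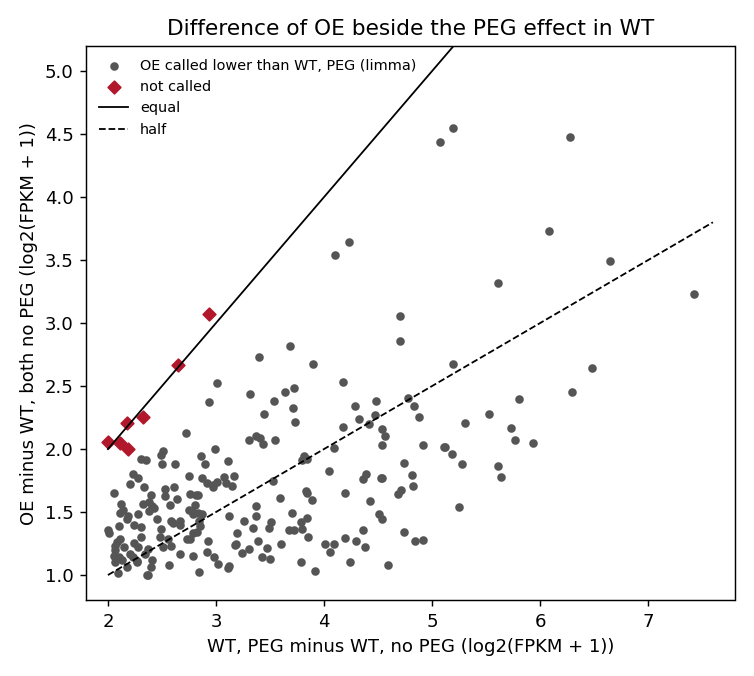
Each point is a member, with the PEG effect in WT on the horizontal axis and OE minus WT without PEG on the vertical axis, both as differences in log2(FPKM + 1); the lines mark equal values and a share of 50%. The 226 grey members were called lower in OE without PEG than in WT under PEG and lie below the line of equality, and the 7 red members not called lie near it.

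The shares were lower for genes that were nearly silent in unstressed wild type. For the 82 members with a WT mean under 0.5 FPKM without PEG, medians were 21.3 FPKM under PEG and 2.504 without PEG in OE, and 18.1 under PEG and 0.172 without PEG in WT, and the median share was 41.3% on the log2(FPKM + 1) scale and 14.2% in FPKM. The 65 members between 0.5 and 2 FPKM had median shares of 53.7% and 30.02%, and the 65 between 2 and 10 FPKM had 60.4% and 36.1%. The 21 members above 10 FPKM had 60.9% and 39.1%, with medians of 309, 80.9, 187 and 22.3 FPKM in OE under PEG, OE without PEG, WT under PEG and WT without PEG. The pseudocount of 1 compresses OE minus WT of weakly expressed genes more in proportion than their PEG effect. It thus lowers their share on the log2(FPKM + 1) scale, and most so in the first 2 of these bins. The trend on that scale therefore cannot be separated from the pseudocount. The share in FPKM uses none, though the choice of members did.

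Under PEG the members stood on balance higher in OE than in WT, a comparison that shares its WT PEG libraries with the one above. The difference is made of those in the rule, so its calls describe the members and are no test of them. limma on log2(FPKM + 1) called 145 of the 233 (62.2%) higher in OE, where 36.1% of all genes tested were called higher, and 41 (17.6%) lower, where 32.2% were. The remaining 47 were not called. By at least 1, 63 members were higher, against 5.95% of the genes tested, and 6 were lower, against 3.37%. The median difference was 0.51 among members and 0.03 over all genes tested. All 3 OE libraries lay above all 3 WT libraries under PEG in 160 members and below them in 46, orderings found in 37.5% and 34.1% of the genes tested. Scaled to the same FPKM sum, 130 members were higher and 53 lower, where 27.5% and 40.4% of all genes tested were, and the median was 0.39 among members and -0.07 over all genes tested.

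The 2 members that differed most upward were Potri.006G212000 and Potri.014G108900. Potri.006G212000 read 100, 90.1 and 93.2 FPKM in OE under PEG and 6.74, 6.48 and 7.10 in WT under PEG, a difference of 3.62 (SE 0.08). Its level was 2.71, 2.41 and 2.09 in OE without PEG, and a single read was recovered for it over the 3 WT libraries without PEG. Potri.014G108900 read 511, 547 and 492 FPKM in OE under PEG and 48.6, 56.4 and 46.4 in WT under PEG, a difference of 3.33 (SE 0.10). It had 25.6, 28.4 and 27.5 in OE without PEG and 2.59, 3.76 and 2.63 in WT without PEG.

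Downward the largest differences were those of Potri.005G013600 and Potri.013G070350. Potri.005G013600 read 31.6, 28.3 and 31.3 FPKM in OE under PEG and 92.9, 92.6 and 92.5 in WT under PEG, a difference of -1.58 (SE 0.07), and it had 6.21, 5.85 and 5.88 in OE without PEG and 1.05, 1.00 and 0.688 in WT without PEG. Potri.013G070350 read 28.9, 25.6 and 27.1 FPKM in OE under PEG and 63.9, 63.2 and 59.1 in WT under PEG, a difference of -1.16 (SE 0.07). In both genes unstressed OE was above unstressed WT while stressed OE was below stressed WT, with no overlap between the groups. For Potri.017G114600, the gene with the largest PEG effect in WT, the difference under PEG was 0.22 (SE 0.15) and was not called, although all 3 OE values were above the 3 WT values. It was 0.02 with the length trend removed, 0.04 after quantile normalization and 0.10 at the same FPKM sum.

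**Figure D4:**
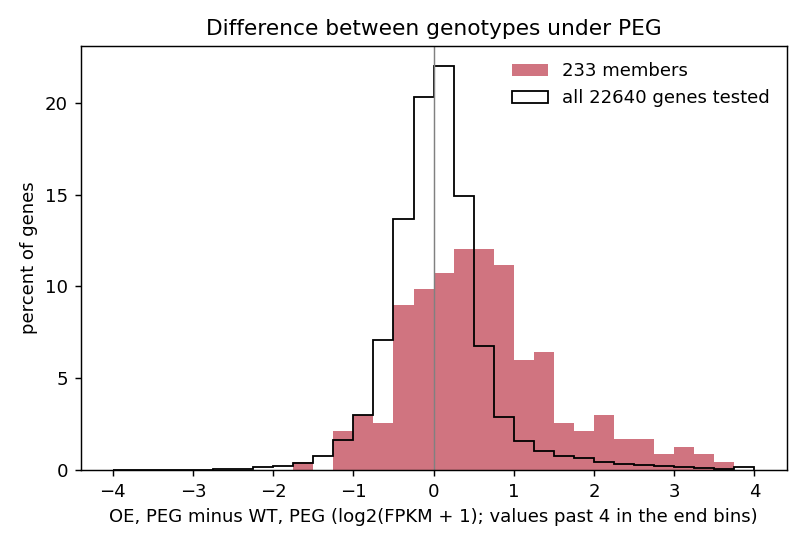
Percent of genes by the difference between OE and WT under PEG in log2(FPKM + 1), for the 233 members (red) and all 22640 genes tested (black outline). The members are shifted to the right, with a median of 0.51 against 0.03.

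The calls under PEG were split by the wild-type level as well, beside all genes tested with a WT mean in the same range. Among the 82 members under 0.5 FPKM in WT without PEG, 43 were called higher in OE under PEG and 22 lower, where 60.7% of the 601 genes tested were higher and 19.5% lower. In this range members were thus called higher less often, and lower more often, than the genes tested. Genes in this range were tested only where other groups raised their mean over the 12 libraries to at least 1 FPKM. The shares of the 601 genes are therefore not those of all genes so low in WT. Between 0.5 and 2 FPKM, 37 of 65 members were higher and 12 lower, where 34.2% of 2694 genes were higher and 22.6% lower. Between 2 and 10 FPKM the counts were 48 and 5 of 65, where the shares of 9027 genes were 30.1% and 31.1%. Above 10 FPKM they were 17 and 2 of 21, where the shares of 10279 genes were 40.2% and 36.4%.

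Members were shorter than most genes. Their recovered transcript length had a median of 1164 bases and ranged from 186 to 4244, against a median of 1825 over the genes tested and 1782 over the genes that reached the floor with a WT mean above 0. With the length trend removed from each library, an alternative chosen after seeing the data, 126 members were called higher and 50 lower, with a median of 0.34, while 33.7% of all genes tested were called higher and 30.45% lower, with a median of 0.02. The part of length in the result was not tested further.

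The difference under PEG was also read in 2 of the 3 sets of genes that failed a single fold limit, and not in the 270 genes that failed only the limit on the PEG effect in WT. Of the 142 genes raised in both genotypes with OE less than 1 above WT without PEG, limma on log2(FPKM + 1) called 37 (26.1%) higher and 65 (45.8%) lower in OE under PEG, with a median difference of -0.16. Their levels were lower, with a median of 10.7 FPKM in OE under PEG and 11.7 in WT under PEG. Of the 38 genes that rose by less than 1 with PEG in OE, 2 were called higher and 24 lower, with a median of -0.57. These sets differ from the members by limits on means that enter the same difference, so the contrast between sets is a description.

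By their naming convention, identifiers of this form are numbered along the chromosomes of Populus trichocarpa, the first 3 digits giving the chromosome. That close numbers mean neighbouring genes was assumed from this convention and was not checked against an annotation, and the counts below rest on it. The rule did not use the identifiers, and members often had members as neighbours. Within 10 identifiers on the same chromosome, 77 of the 233 members (33.0%) had another member, against 1967 of the other 16982 chromosome-numbered genes that reached the floor (11.6%). Directly next to another member stood 37 members (15.9%) and 219 of the other genes (1.29%). Of 141 chromosome-numbered genes raised in both genotypes with OE less than 1 above WT, 27 (19.1%) had another of that set within 10 identifiers, a share that also depends on the size of the set. By chromosome, members were most frequent on chromosome 7, with 20 of 679 such genes (2.95%), and least on chromosome 18, with 3 of 636 (0.472%).

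There were 7 runs of 3 or more members with gaps of at most 10 identifiers, and they held 29 members. The calls under PEG given for runs stand beside 36.1% of all genes tested called higher in OE and 32.2% called lower. One run of 7 members extended from Potri.007G113700 to Potri.007G114700 on chromosome 7 among 12 listed identifiers. Its members had lengths of 634 to 827 bases and group means of 13.8 to 191 FPKM under PEG and 1.69 to 12.6 without PEG in OE, and 19.1 to 130 under PEG and 0.0983 to 0.466 without PEG in WT. The PEG effect in WT was 4.19 to 6.65 and OE exceeded WT without PEG by 1.29 to 3.49. None of the 5 other identifiers in between reached 5 FPKM in any group. Under PEG, limma on log2(FPKM + 1) called 5 of the 7 lower and 1 higher in OE, the higher one being Potri.007G114375, which is printed above.

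A second run of 7 members lay on chromosome 17 from Potri.017G044800 to Potri.017G047400, among 25 identifiers. Its members had means of 8.26 to 48.8 FPKM under PEG and 1.24 to 5.46 without PEG in OE, and 10.6 to 83.4 under PEG and 0.0262 to 0.689 without PEG in WT, and 6 of the 7 were called lower in OE under PEG by limma on log2(FPKM + 1). Another 3 genes of this stretch rose by at least 2 with PEG in WT but stood less than 1 above WT in OE without PEG. Within the same stretch, 6 consecutive identifiers that are no members, picked after their values were seen, did not follow the pattern. From Potri.017G045100 to Potri.017G045400 their means were 4.29 to 24.7 FPKM under PEG and 0.686 to 5.56 without PEG in OE, and 0.153 to 1.19 under PEG and 0.226 to 1.22 without PEG in WT. These genes were high in OE under PEG and near their unstressed level in WT under PEG, while the 7 members around them differed by -1.13 to -0.15 between OE and WT under PEG.

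The 5 shorter runs held 3 members each. In the run from Potri.014G108800 to Potri.014G109000, 3 successive identifiers of 597 to 776 bases, all 3 members were called higher in OE under PEG by 2.69 to 3.33. Their means were 137 to 516 FPKM under PEG and 6.403 to 27.2 without PEG in OE, and 16.2 to 50.5 under PEG and 0.981 to 3.84 without PEG in WT. The 2 runs on chromosome 8 had all 3 members called higher, by 0.53 to 0.68 and by 0.88 to 1.72. In the run on chromosome 9, which holds Potri.009G114701, 2 were called higher and 1 was not called, and in the run on chromosome 1, 2 were called higher and 1 lower. Calls of higher prevailed in some runs and calls of lower in others. Members of a run may not be independent of each other, so nothing is read from a direction they share. Neighbouring genes of similar length can be near-identical copies, between which reads may have been split or lost, so single values within a run are uncertain.

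**Figure D5:**
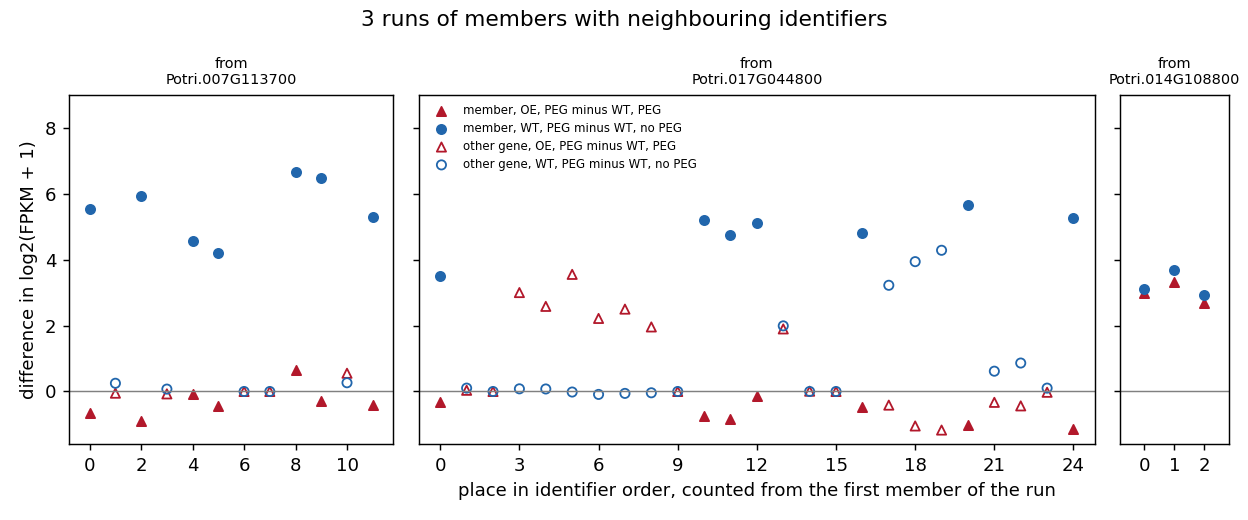
Differences in log2(FPKM + 1) for every identifier of 3 runs, by place in identifier order from the first member: triangles show OE under PEG minus WT under PEG, circles WT under PEG minus WT without PEG, filled for members and open for other genes. On chromosome 17 (middle), 6 open triangles between 1.96 and 3.55 lie over open circles near 0, and the filled triangles lie below 0.

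The choice of genes was repeated on 2 libraries per group, without the floor, and read in the libraries left out. With the libraries numbered 1, 2 or 3 left out, 233, 229 and 234 genes were chosen. Of these, 197 (84.6%), 196 (85.6%) and 189 (80.8%) met all 3 limits in the left-out libraries, and every gene chosen had all 3 differences above 0 there. The limits are large beside the spread between libraries of a group, which may be technical. Differences above 0 were thus nearly given in advance, and the counts describe repeatability between libraries only. The median PEG effect in WT was 3.14, 3.15 and 3.20 in the left-out libraries, against 3.11, 3.10 and 3.22 in those used for the choice. The corresponding medians of OE minus WT without PEG were 1.63, 1.65 and 1.52, against 1.62, 1.62 and 1.60. For the PEG effect in OE they were 2.086, 2.109 and 2.312, against 2.138, 2.205 and 2.087. The limit on OE minus WT taken alone was met by 212, 216 and 199 of the genes chosen.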

How the data were processed

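RNA of 12 root tip libraries was measured in 4 groups of 3. The deposited table holds FPKM to 4 decimals, per the file headers 1 column for each library title. The submitters' processing notes list HTSeq 0.6.0, HISAT2 2.1.0 and Bowtie2 2.2.3 without saying what each did. Genome build, annotation and strand setting were not given in the sources used here. Whole reads, depth and gene length were recovered from the steps of the FPKM values. For the 16698 genes with an FPKM sum over 50, 100.0% of values were returned within 0.0001 FPKM or 0.001% of the value.

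Tests used limma 3.58.1 in R 4.3.3 on log2(FPKM + 1), with a variance trend, all 4 groups in a single fit and two-sided moderated statistics. The 22640 genes with a mean of at least 1 FPKM were tested, which includes every member, and p-values were adjusted by Benjamini-Hochberg over all of them. Fold changes on this scale understate those of weak genes. The scripts were run on simulated data. For the limma fits, every group had the levels of WT under PEG apart from a few changed genes, far fewer than were called here. Such runs check the code and not the calls on these genes.

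The comparisons of OE under PEG and of OE without PEG with WT under PEG were planned as tests, but are sums of the differences in the rule, so their calls are given as descriptions. The members, lists and tests were chosen with earlier results of these data known. Planned gene lists and promoter motifs were not used, since the identifiers come with no names or sequences. The rule for named genes took 6 to 8 members per quantity (PEG effect in WT, OE minus WT, FPKM in OE under PEG, difference under PEG each way) and the members of runs. With no names for the identifiers, only the first 2 per quantity and the ends of runs are printed, and the others are marked as picked after their values were seen.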

Additional observations from a re-analysis of the deposited data

How the results depend on the processing

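The count of members followed the pseudocount: 0.1 in place of 1 gave 450 genes and 0.5 gave 325, each with all 233 among them, while a floor of 10 FPKM, the requirement of 3 WT libraries above 0, and 3 other scalings gave 207 to 233. Leaving out each library in turn gave 226 to 237. Under PEG, a pseudocount of 0.1 left 26 members called lower in OE instead of 41, while the count of those called higher was 126 to 157 over all alternatives and 137 to 148 with a library left out, and that of lower calls 35 to 43 with a library left out. With all libraries at the same FPKM sum the counts were 130 higher and 53 lower. OE without PEG was called lower than WT under PEG in 210 to 227 members over all alternatives, the 210 being of the 217 members tested at a minimum mean of 5 FPKM, and in 224 to 227 with a library left out. Voom on recovered reads called 1 member higher there, as did the fit without the first OE library without PEG, so that leave-one-out counts were 0 to 1; in both this was Potri.001G288600. For the share of genes meeting the limits in left-out libraries numbered 2, a pseudocount of 0.5 gave 83.0% instead of 85.6%. The difference of Potri.017G114600 under PEG passed the test with voom, with only the PEG groups in the fit, and without the third OE library without PEG (0.22 each time, limma adjusted p = 0.00016, 0.00049 and 0.00039), and fell to 0.02 with the length trend removed, 0.04 after quantile normalization and 0.10 at the same FPKM sum, not called. The cause of these shifts was not tested.

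Libraries with the same replicate number deviated from their group means with correlations of 0.10, 0.04 and 0.00 (OE under PEG and WT under PEG), and 0.07, -0.02 and 0.01 (OE without PEG and WT under PEG). Libraries with different numbers were not compared in this way, so whether those with the same number share more than the number was not settled. The replicate block gave 146 members higher and 41 lower under PEG and 226 lower for OE without PEG. Depth limits the WT values without PEG: 7 members had at most 3 reads over the 3 libraries, and counting error is large at such values.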
